A study of Mus musculus with 6 samples.

Results

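Arginine sits at a branch point in the gut wall. Arginases split it into urea and ornithine, nitric oxide synthases turn it into nitric oxide and citrulline, and ornithine decarboxylase makes from ornithine the first polyamine, putrescine. Spermidine and spermine are then built with aminopropyl groups from decarboxylated S-adenosylmethionine, and are broken down again by acetylation and oxidation. Polyamines are known for their need in dividing epithelium, and arginase 1 is best known as an enzyme of liver and of some activated myeloid cells. Described here are 10 genes of this pathway out of 37991 gene identifiers in the count tables: Arg1, Arg2, Nos2, Ass1, Oat, Odc1, Amd1, Srm, Sms and Sat1. They were chosen by symbol as a pathway, with earlier polyp results from these libraries known. Their polyp values and adjusted p-values are therefore a description of where each gene stood among all genes tested, not an independent test.

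RNA of the cecum was sequenced from 3 mice of the HBUS strain after 60 weeks, each giving 1 serrated polyp and 1 sample of normal distal cecum from around it, and numbered 1119, 1192 and 1199. As background, HBUS animals are transgenic for HB-EGF, a growth factor, and for US28, a chemokine receptor of viral origin, both made in the intestinal epithelium, so the surrounding tissue is transgenic too, and no animal without the transgenes was analysed here. The comparison asked which transcripts differ between a polyp and its own surroundings. Each sample was whole tissue, in which fewer cells of a type and less RNA per cell cannot be told apart. The labels describe a kit for enriching bacterial RNA at the expense of mammalian RNA. They do not make certain that the mouse counts come from RNA treated in this way, and an effect on single genes was not tested.

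Libraries held 6632645 to 13350119 counts, of which the 2 mitochondrial ribosomal RNA genes took 46.3% (polyp of mouse 1192) to 75.3% (surrounding tissue of mouse 1199). These same libraries also had the highest and the lowest normalization factor (1.43 and 0.591). A count of 3 corresponds to 0.225 to 0.452 CPM of a library's total count. The CPM values given for genes are scaled by normalized library size, and floors and counting intervals cover counting error only. All 10 genes passed the filter on low counts. All 10 general epithelial markers were detected and tested, among them the intestinal factors Cdx1 and Cdx2, at 122 counts or more in every library.

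Promoter entries were found for 6 of the 10 genes in a RefSeq table. The 250 bases before the transcription start are shown for Sat1 and Smox, a pair of polyamine-degrading genes with higher transcript levels in polyps, and for Odc1, the gene of polyamine synthesis whose difference did not pass. They run 5′ to 3′ on the gene's strand, and capitals mark each GC box (GGGCGG, read on both strands).
Sat1 (GRCm38.p6, chrX:155216450-155216699, minus strand): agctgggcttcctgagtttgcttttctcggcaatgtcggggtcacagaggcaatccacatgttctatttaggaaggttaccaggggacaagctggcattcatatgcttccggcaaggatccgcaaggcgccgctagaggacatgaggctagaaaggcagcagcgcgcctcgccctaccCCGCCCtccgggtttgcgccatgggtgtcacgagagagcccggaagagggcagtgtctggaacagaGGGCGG
Smox (GRCm38.p6, chr2:131491612-131491861, plus strand): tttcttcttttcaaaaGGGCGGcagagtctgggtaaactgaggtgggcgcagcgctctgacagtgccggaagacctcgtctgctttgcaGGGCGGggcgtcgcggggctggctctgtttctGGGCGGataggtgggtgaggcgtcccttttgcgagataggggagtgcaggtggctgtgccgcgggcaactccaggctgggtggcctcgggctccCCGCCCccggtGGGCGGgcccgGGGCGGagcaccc
Odc1 (GRCm38.p6, chr12:17544623-17544872, plus strand): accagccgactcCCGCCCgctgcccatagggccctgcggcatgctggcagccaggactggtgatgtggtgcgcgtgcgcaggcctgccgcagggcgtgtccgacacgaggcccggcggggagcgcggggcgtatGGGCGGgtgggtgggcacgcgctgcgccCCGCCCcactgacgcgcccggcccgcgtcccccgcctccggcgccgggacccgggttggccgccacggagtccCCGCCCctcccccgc
The window of Sat1 held 2 GC boxes, that of Smox 6 and that of Odc1 4. A GC box was found in 32.7% of 32851 windows of this length. Neither the E-box CACGTG (6.02% of windows) nor the AP-1 motif TGANTCA (6.75%), both read on both strands, was among the letters of these 3 windows. These matches describe the sequence only.

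Arg1 stood out in polyps of all 3 mice, and its mitochondrial counterpart Arg2 did not. Arg1 (ENSMUSG00000019987), the cytosolic arginase, was measured at 6.44, 0.498 and 10.2 normalized CPM in the surrounding tissue of mice 1119, 1192 and 1199 (68, 7 and 45 counts). In their polyps it was measured at 55.1, 16.5 and 35.9 CPM (456, 202 and 252 counts). Every polyp library lay above every surrounding library. The means were 5.70 ± 4.87 and 35.8 ± 19.3 CPM (SD, n = 3 mice), and the fitted log2 fold change was 3.08 ± 0.51 (SE; 8.45-fold, 95% interval 3.67 to 19.5; adjusted p = 0.0272). Within mice the polyp-to-surrounding ratio was 8.55 in mouse 1119, 33.1 in mouse 1192 (95% counting interval 15.8 to 83.5) and 3.53 in mouse 1199. The ratios of mice 1192 and 1199 thus differed by more than counting error. The call was lost without mouse 1119 (log2 fold change 3.11, adjusted p = 0.161) and without the pairing (2.76, adjusted p = 0.401).

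Arg2 (ENSMUSG00000021125), the arginase of mitochondria, had 2.84, 7.04 and 1.36 CPM in surrounding tissue against 1.81, 5.15 and 1.28 in the polyps, in the same order of mice. The polyp value was the lower of the pair in each mouse, but the groups overlapped and the difference did not pass (log2 fold change -0.42 ± 0.55, 95% interval -1.64 to 0.81, adjusted p = 0.801). Arg2 shares 285 of its 1428 exon bases with Vti1b on the other strand in the GENCODE M21 annotation, and reads from that stretch may not have been told apart. Per kilobase of exon, which allows levels of different genes to be compared, Arg1 made up 59.2%, 4.34% and 82.8% of the summed arginase level in surrounding tissue. In polyps its share was 95.1%, 67.3% and 94.7%. Mouse 1192 had the lowest Arg1 share in both tissues, and the highest Arg2 level in both.

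**Figure D1:**
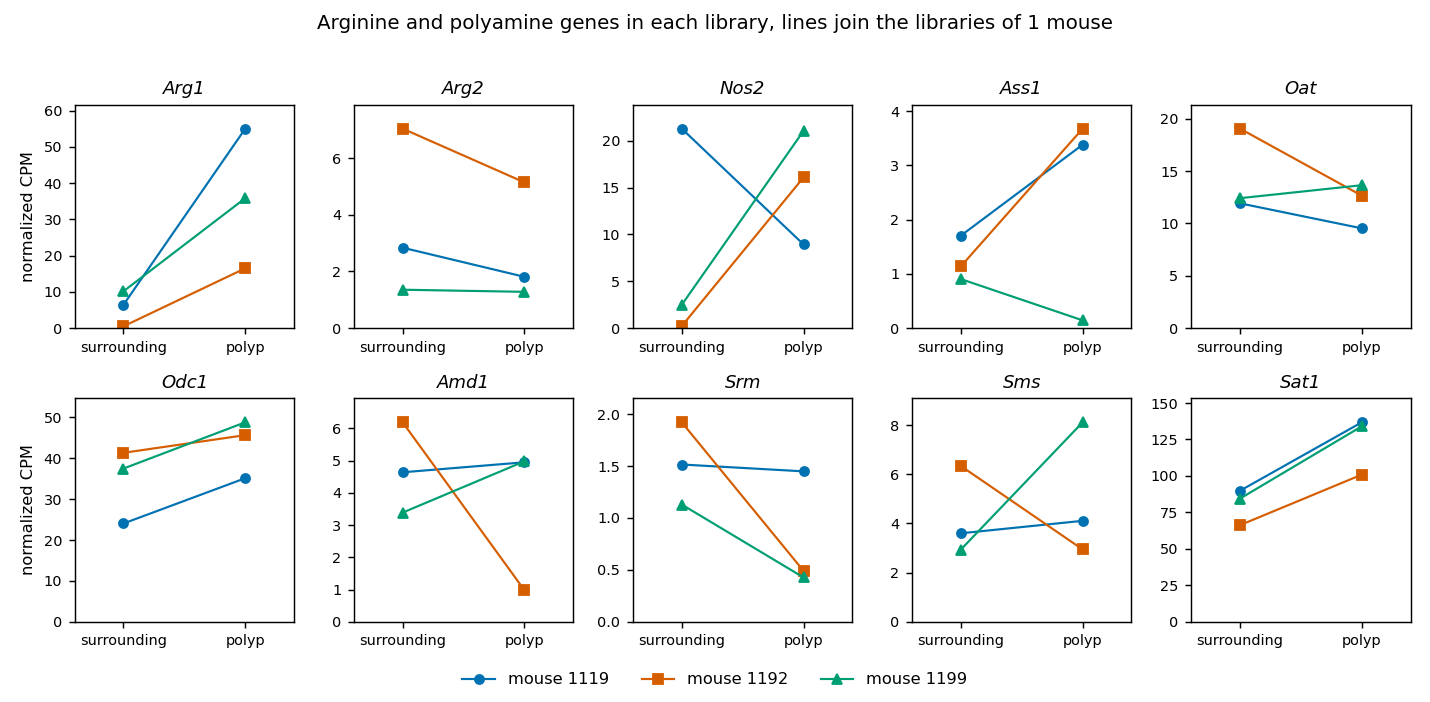
Normalized CPM (vertical axis, linear from 0) of the 10 genes in surrounding tissue and polyp, with 1 line for each mouse. Arg1 and Sat1 are the genes in which all 3 polyp values lie above all 3 surrounding values, and the line of mouse 1119 runs against the others for Nos2.

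Nos2 and Ass1, the genes of nitric oxide formation and of arginine resynthesis, differed between mice in direction. Nos2 (ENSMUSG00000020826), the inducible nitric oxide synthase, was measured at 21.3, 0.213 and 2.48 CPM in surrounding tissue of mice 1119, 1192 and 1199 (225, 3 and 11 counts) and at 8.93, 16.1 and 21.1 CPM in polyps (74, 197 and 148 counts). The surrounding tissue of mouse 1119 held as much Nos2 as the highest polyp, and the groups overlapped. The ratio was 0.419 in mouse 1119 (counting interval 0.318 to 0.548), 75.4 in mouse 1192 (25.4 to 369) and 8.48 in mouse 1199 (4.60 to 17.4). With all 3 mice the log2 fold change was 2.24 ± 1.93 (95% interval -3.82 to 8.30, adjusted p = 0.726), and without mouse 1119 it was 4.37 (adjusted p = 0.0384). Ass1 (ENSMUSG00000076441), argininosuccinate synthase, which starts the return of citrulline to arginine, was low throughout. It had 18, 16 and 4 counts in surrounding tissue and 28, 45 and 1 in polyps, or 1.70, 1.14 and 0.903 against 3.38, 3.68 and 0.142 CPM. It was higher in the polyps of mice 1119 and 1192, and in mouse 1199, with a single polyp count, the ratio was 0.158 (counting interval 0.00320 to 1.59). Ass1 did not pass (log2 fold change 0.50 ± 1.07, adjusted p = 0.887).

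Ornithine can go on to proline and glutamate through Oat or to polyamines through Odc1. Oat (ENSMUSG00000030934), the mitochondrial ornithine aminotransferase, had 11.9, 19.1 and 12.4 CPM in surrounding tissue against 9.54, 12.7 and 13.7 in the polyps, with overlapping groups (log2 fold change -0.27 ± 0.27, adjusted p = 0.738). Odc1 (ENSMUSG00000011179), ornithine decarboxylase, had 24.0, 41.3 and 37.5 CPM in surrounding tissue against 35.1, 45.7 and 48.8 in the polyps. It was higher in the polyp of each mouse, at ratios of 1.46, 1.10 and 1.30, though the groups overlapped. It did not pass (log2 fold change 0.35 ± 0.17, 95% interval -0.04 to 0.74, adjusted p = 0.421). The interval bounds a change of Odc1 transcript at 0.976-fold to 1.67-fold.

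The genes of spermidine and spermine synthesis showed no shared direction. Amd1 (ENSMUSG00000075232), the decarboxylase that supplies the aminopropyl donor, had 4.64, 6.19 and 3.39 CPM in surrounding tissue against 4.95, 0.980 and 4.98 in the polyps. Srm (ENSMUSG00000006442), spermidine synthase, had 1.51, 1.92 and 1.13 CPM in surrounding tissue against 1.45, 0.490 and 0.427 in the polyps, on 3 to 27 counts a library. Sms (ENSMUSG00000071708), spermine synthase, had 3.60, 6.33 and 2.94 CPM in surrounding tissue against 4.10, 2.94 and 8.11 in the polyps. In mouse 1192 the polyp was lower for each of them, at ratios of 0.158 for Amd1 (counting interval 0.0788 to 0.291), 0.255 for Srm and 0.464 for Sms, in the polyp library with the highest normalization factor. Whether that library's composition had a part in these ratios was not tested. In mouse 1199 the ratio was 1.47 for Amd1, 0.378 for Srm and 2.76 for Sms, and in mouse 1119 all lay between 0.956 and 1.14. None passed (log2 fold changes -0.60 ± 0.68, -1.11 ± 1.20 and 0.14 ± 0.56, adjusted p = 0.768, 0.758 and 0.943). Without mouse 1192 the value of Amd1 turned to 0.27, and without mouse 1199 that of Sms turned to -0.48. Amd2, a close copy of Amd1, had 0 to 3 counts in each library.

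Sat1 was higher by nearly the same ratio in the polyp of each mouse. Sat1 (ENSMUSG00000025283), the acetyltransferase that tags spermidine and spermine for export or oxidation, had 89.8, 66.2 and 84.5 CPM in surrounding tissue against 137, 101 and 134 in the polyps. The ratio was 1.52, 1.52 and 1.59 in the 3 mice, and no polyp value reached down to a surrounding value. The means were 80.2 ± 12.4 and 124 ± 20.0 CPM, with a log2 fold change of 0.63 ± 0.14 (1.54-fold, 95% interval 1.25 to 1.91, adjusted p = 0.0446). This call lay close to the threshold. It was lost without mouse 1119, 1192 or 1199 (adjusted p = 0.176, 0.136 and 0.296), without the pairing (0.199), with upper-quartile normalization (0.0566) and without robust spread estimates (0.0721), while the log2 fold change stayed between 0.60 and 0.64.

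Per kilobase, Sat1 was the most abundant of the 10 transcripts in each tissue, at 28.9 ± 4.46 CPM per kb in surrounding tissue and 44.7 ± 7.20 in polyps. Odc1 came next in surrounding tissue (10.1 ± 2.67), ahead of Oat (6.13 ± 1.69). Arg1 stood at 2.56 ± 2.19 there, not apart from Arg2 (2.62 ± 2.07) or Nos2 (1.81 ± 2.62) given their spread. In polyps Arg1 reached 16.1 ± 8.65, which overlapped Odc1 at 12.7 ± 2.10. Sat1 exceeded Odc1 per kilobase in every library, by 4.59, 1.97 and 2.77 times in surrounding tissue and 4.78, 2.71 and 3.37 times in polyps. The ratio was thus somewhat higher in the polyp of each mouse, while the mice differed by more than the tissues.

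**Figure D2:**
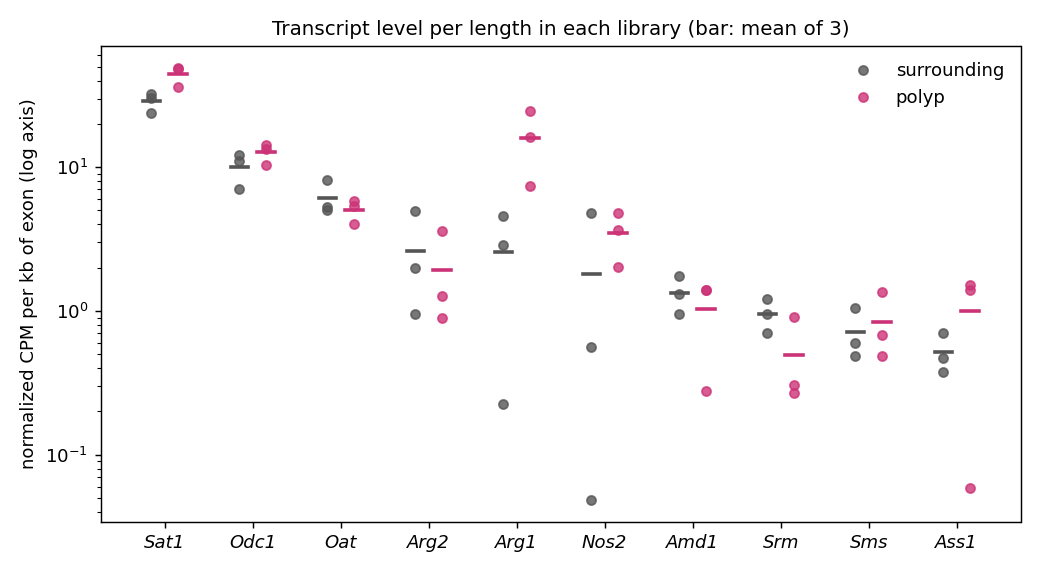
Normalized CPM per kilobase of exon (log axis) of the 10 genes, ordered by their mean in surrounding tissue, with 1 point for each library and a bar at the mean of 3. Arg1 lies at the level of Arg2 in surrounding tissue (2.56 and 2.62) and near Odc1 in polyps (16.1 and 12.7).

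In all, 2 of the 10 genes were called higher in polyps and 0 lower, against 2.82% of 11970 genes called in either direction, 1.71% higher and 1.1% lower. Polyp and surrounding values did not overlap for 2 of the 10, both with polyps above, while 9.33% of all genes lay apart in that direction and 18% in either. Since the genes were chosen with this contrast known, nothing is read from these shares. The median log2 fold change was 0.25 over the 10 genes and -0.03 over all genes tested. The differences between mice, which had no part in the choice, were tested in the same fit: 0 of the 10 genes were called (edgeR quasi-likelihood test), against 0.226% of all genes. An unadjusted p under 0.05 between mice was reached by 3 of them, Arg1, Arg2 and Odc1 (edgeR adjusted p = 0.425, 0.473 and 0.553), against 8.67% of all genes. In the same comparison of mice, DESeq2 called 1 of the 10, Arg1 (adjusted p = 0.0132), and limma-voom 0. Mouse 1192 had the lowest Arg1 in both tissues and mouse 1119 the lowest Odc1 in both.

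The neighbouring steps of the pathway were taken from 5 lists of genes written for this description. Among regulators of polyamine levels, polyamine oxidases and hypusine genes, 1 of 8 tested genes rose and 0 fell, with a median log2 fold change of 0.20. The gene that rose was Smox, spermine oxidase, which turns spermine back into spermidine and releases hydrogen peroxide. It had 19.0, 14.0 and 45.8 CPM in surrounding tissue against 46.8, 48.9 and 77.7 in the polyps. The polyps of mice 1119 and 1192 only just exceeded the surrounding tissue of mouse 1199, while within each mouse the polyp was clearly higher (log2 fold change 1.29 ± 0.22, 2.44-fold, adjusted p = 0.0159). This call was lost without mouse 1119 or 1199 (adjusted p = 0.0839 and 0.0569) and without the pairing (0.344). Oaz1, the antizyme that sends ornithine decarboxylase to degradation, was lower in the polyp of each mouse without passing (-0.42 ± 0.17, adjusted p = 0.300), and Eif5a, the protein that carries the spermidine-derived amino acid hypusine, was higher in each without passing (0.35 ± 0.14, adjusted p = 0.289). Azin1, the antizyme inhibitor, averaged 135 ± 7.04 CPM around the polyps and 141 ± 11.7 within them (SD, n = 3 mice), with a 95% interval of the fold change of 0.836-fold to 1.30-fold. Oaz2 had a log2 fold change of 0.33 ± 0.32.

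The methionine cycle supplies S-adenosylmethionine for spermidine synthesis and for methylation. Of 7 tested genes of this cycle and its salvage branch 0 rose and 2 fell. All 7 fitted log2 fold changes were negative, with a median of -0.94, which was the value of Enoph1. Since the list was chosen with earlier results known, nothing is read from the shared sign. Not every mouse had a lower polyp value for Enoph1, Adi1, Mri1 and Apip, which did not pass. Mat2a, the catalytic subunit of methionine adenosyltransferase outside the liver, had 275, 296 and 222 CPM in surrounding tissue against 109.7, 152 and 136 in the polyps. No polyp came near the surrounding values, and Mat2a fell by 1.00 on the log2 scale (SE 0.16, adjusted p = 0.0123). The call was lost without mouse 1119 (-0.84, adjusted p = 0.0770). Ahcy, which clears S-adenosylhomocysteine, had 38.2, 99.05 and 26.9 CPM in surrounding tissue against 15.2, 36.0 and 11.95 in the polyps. It was lower in each polyp than in the tissue around it, though the groups overlapped because mouse 1192 was high in both (log2 fold change -1.33 ± 0.18, adjusted p = 0.00696). Ahcy was also called between mice (adjusted p = 0.0191), and its polyp call was lost without the pairing (adjusted p = 0.515). Mat2b, the regulatory subunit, was lower in all 3 polyps without passing (-0.53 ± 0.20, adjusted p = 0.268), as was the salvage enzyme gene Enoph1 in its mean (-0.94 ± 0.61, adjusted p = 0.572).

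In the list of arginine synthesis and breakdown, 1 of 12 tested genes rose and 0 fell, with a median of 0.59. Ddah1, which degrades the methylarginines that inhibit nitric oxide synthases, had 60.9, 54.7 and 48.3 CPM in surrounding tissue against 101, 79.9 and 91.5 in the polyps. The groups were well apart (log2 fold change 0.73 ± 0.15, 1.66-fold, adjusted p = 0.0364), and the call was lost without mouse 1119, 1192 or 1199 (adjusted p = 0.167, 0.0577 and 0.301), without the pairing (0.101) and without robust spread estimates (0.0550). Cps1, which makes carbamoyl phosphate for citrulline, had 0.189, 0.712 and 3.16 CPM in surrounding tissue against 3.02, 15.6 and 2.70 in the polyps. It was higher in the polyps of mice 1119 (2 against 25 counts) and 1192, where it was highest, and its ratio in mouse 1199 was below 1. Cps1 did not pass (log2 fold change 2.69 ± 0.98, adjusted p = 0.255). DESeq2 (adjusted p = 0.0335), limma-voom (0.0314) and the fit without a filter on low counts (0.00413) called Cps1, and the genes called in this list then numbered 2, 3 and 3. Glud1, glutamate dehydrogenase, had a log2 fold change of 0.34 ± 0.17 without passing.

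Of 5 tested genes for tetrahydrobiopterin, the cofactor of nitric oxide synthases, 1 rose and 0 fell, with a median of 0.78. Gch1, the first and rate-limiting enzyme of its synthesis, had 14.4, 14.6 and 25.1 CPM in surrounding tissue against 45.4, 36.9 and 45.0 in the polyps. All polyps lay above all surrounding libraries (log2 fold change 1.28 ± 0.21, 2.44-fold, adjusted p = 0.0145), and unlike Nos2 it was higher in the polyp of mouse 1119 too. The call was lost without mouse 1119 or 1199 (adjusted p = 0.107 and 0.0614). Gchfr, its feedback regulator, had a similar log2 fold change at a low level (1.29 ± 0.48, adjusted p = 0.255), and Pts and Qdpr stood at 0.78 ± 0.38 and -0.25 ± 0.23.

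Of 10 tested genes for transport of arginine, ornithine and polyamines, 0 rose and 0 fell in the main edgeR fit. DESeq2 and the edgeR fit without a filter on low counts each called 1. That gene was Slc7a9, the light chain of the renal and intestinal transporter of cystine and basic amino acids. Its adjusted p was 0.00886 with DESeq2, 0.0305 without the filter and 0.0964 in the main edgeR fit. Slc7a9 had 0, 1 and 0 counts in surrounding tissue and 0.966, 3.92 and 2.42 CPM in polyps. Its fitted fold change therefore depends on the prior count and is not given. Atp13a3, a polyamine transporter, was higher in all 3 polyps (0.41 ± 0.14, adjusted p = 0.217), and Slc3a2, the heavy chain of several amino acid exchangers, stood at 0.69 ± 0.26 (adjusted p = 0.263).

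**Figure D3:**
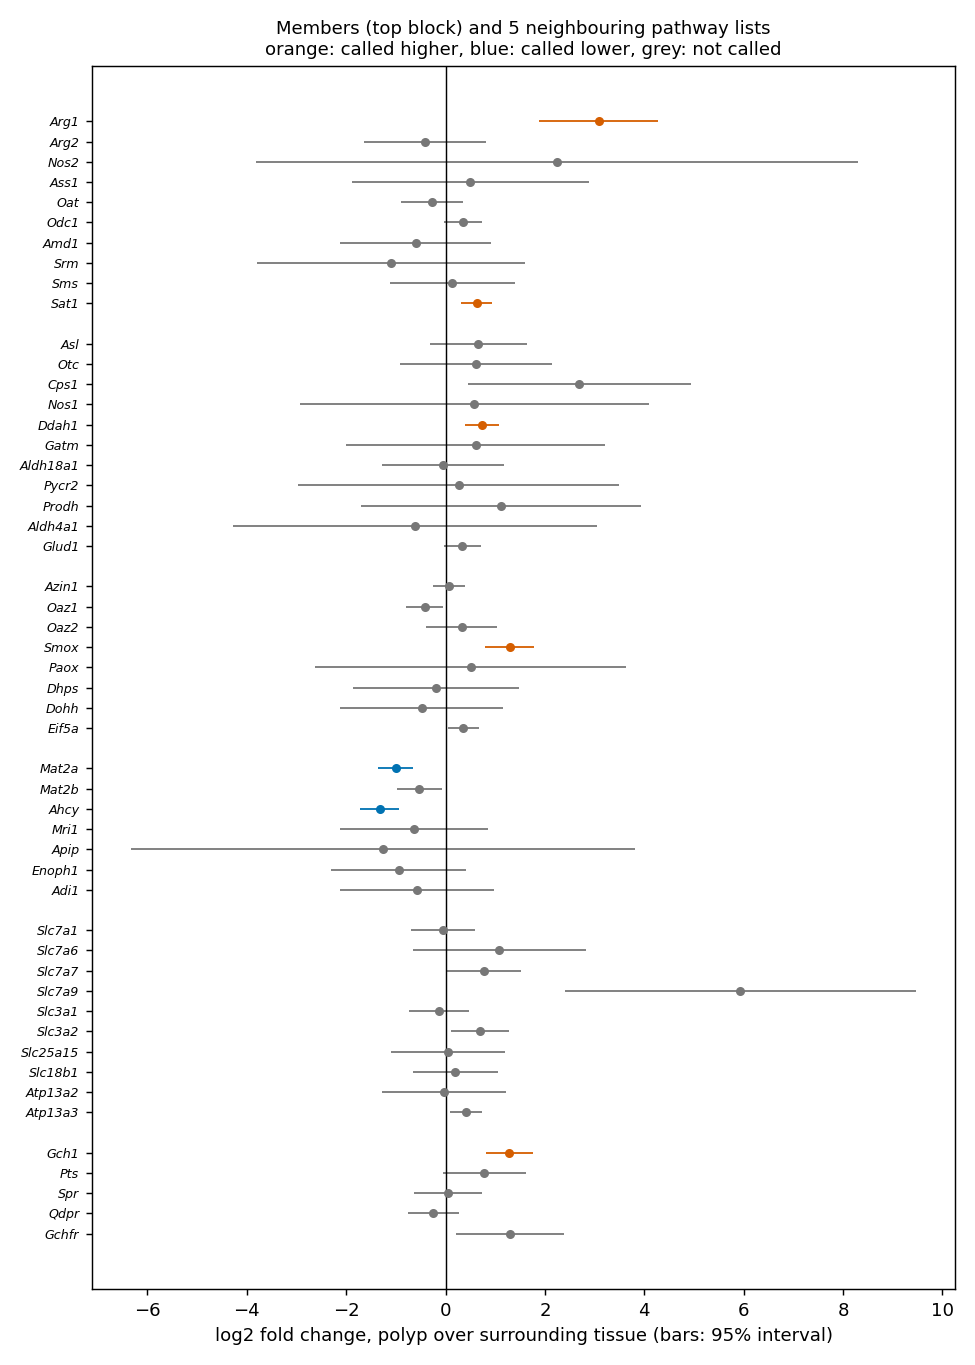
Log2 fold change of polyp over surrounding tissue with its 95% interval (horizontal axis) for the 10 genes in the top block and, below, tested genes of the arginine (1 not drawn), polyamine, methionine, transport and tetrahydrobiopterin lists. Orange marks called higher (Arg1, Sat1, Ddah1, Smox and Gch1), blue called lower (Mat2a and Ahcy) and grey not called, and the point of Slc7a9 depends on the prior count.

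**Figure D4:**
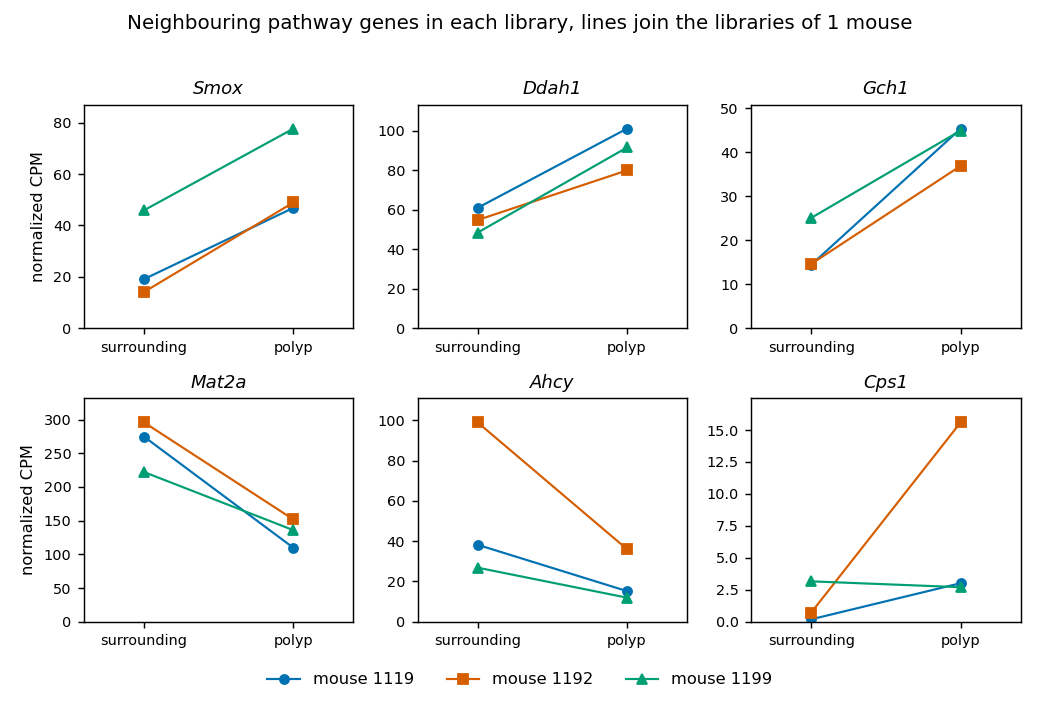
Normalized CPM (vertical axis, linear from 0) of 6 neighbouring pathway genes in surrounding tissue and polyp, with 1 line for each mouse. Smox, Ddah1 and Gch1 are higher and Mat2a and Ahcy lower in the polyp of every mouse. Cps1 is highest in the polyp of mouse 1192 (15.6 CPM), and is higher in the polyp of mouse 1119 but not of mouse 1199.

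Among markers of cell types, some fibroblast, smooth muscle, epithelial and colonocyte genes passed the test, and no macrophage or neutrophil gene did in the edgeR fit. The summed level of 8 macrophage markers was 27.3 to 43.8 CPM in surrounding tissue and 43.5 to 62.8 in polyps. It was higher in the polyp of each of the 3 mice, with 0 of 6 tested genes called by edgeR. The smallest p-values in this list were those of Cd14 and Lyz2, with log2 fold changes of 0.80 ± 0.25 and 0.93 ± 0.29. DESeq2 did not call these genes either (adjusted p = 0.261 and 0.207). Cd14 and Lyz2 made up most of the sum in every library. Adgre1 stood at 0 to 1.57 CPM. Csf1r and Itgam were lower in the polyp of mouse 1192 (8.25 against 3.76 and 2.85 against 0.980 CPM). Both were higher in the polyps of mice 1119 and 1199. Cd68 and Aif1, at 0 to 8 counts a library, were higher in the polyp of no mouse. Markers of alternatively activated macrophages, which are known to make arginase 1 in mice, summed to 3.77 to 10.8 CPM in surrounding tissue and 6.69 to 7.12 in polyps. Mrc1 alone of 8 was tested (0.43 ± 0.51, adjusted p = 0.781), Clec10a was at 0 counts in all libraries, and Chil3 and Retnla had 0 to 9 counts a library. The sum of 10 neutrophil markers was 1.07 to 18.1 CPM in surrounding tissue and 17.2 to 52.5 in polyps, again higher in the polyp of each mouse, and most of it in polyps was Ly6g. That gene, one of a family of related neighbours whose reads may be shared, had 7.48, 0.142 and 13.8 CPM in surrounding tissue against 34.3, 15.9 and 24.8 in the polyps without passing (adjusted p = 0.451), and DESeq2 called it (adjusted p = 0.00155), as did the fit without mouse 1192 (0.0484). S100a8 reached 6.76 CPM in the polyp of mouse 1119 and at most 1.14 elsewhere, Csf3r at most 3.02, Elane had at most 1 count and Camp was at 0 throughout. In mouse 1199 the higher sum rested on Ly6g, and S100a9 and Csf3r were each lower in its polyp (2.03 against 1.14 CPM). S100a9 was higher in the polyp of mouse 1119 alone (0.0947 against 6.88 CPM), and Csf3r in those of mice 1119 and 1192. The sum of 6 fibroblast markers was 61.5 to 143 CPM in surrounding tissue and 204 to 526 in polyps, with Col1a1, Col1a2, Col3a1 and Pdgfra called higher. Krt8, Krt18 and Krt19 were called higher among 10 epithelial markers, of which 8 had a positive fitted change. The other epithelial markers, Cdx1 and Cdx2, were lower in the polyp of each mouse without passing (log2 fold changes -0.59 ± 0.18 and -0.29 ± 0.16, edgeR adjusted p = 0.153 and 0.486). Slc26a3, Car4, Aqp8 and Fabp2 were called lower among 7 tested absorptive colonocyte markers. Of the others, none of which passed, Krt20 was higher in the polyp of each mouse, and Car1 and Slc51a in that of mouse 1192 alone. The colonocyte sums overlapped (8065 to 12267 CPM in surrounding tissue, 5550 to 8977 in polyps). Tagln and Acta2 were called lower among 6 smooth muscle markers. All 6 had every polyp below every surrounding library, against 8.67% of all genes. Their sum was 158 to 188 CPM in surrounding tissue and 11.5 to 68.7 in polyps. Of these marker calls, those of Krt8, Krt18, Krt19, Car4, Fabp2, Col1a1, Col3a1 and Acta2 were lost without the pairing. Without mouse 1119 the calls of Krt8, Krt19, Fabp2, Pdgfra and Acta2 were lost (adjusted p = 0.150, 0.197, 0.218, 0.0944 and 0.287). Without mouse 1192 those of Krt8 and Krt19 were lost (0.353 and 0.254). Without mouse 1199 those of Krt8, Krt19, Car4, Aqp8, Fabp2, Pdgfra, Tagln and Acta2 were lost (0.128, 0.0718, 0.0670, 0.0582, 0.209, 0.0560, 0.0513 and 0.302). The part of these cell types in the levels of Arg1, Sat1 and the other genes was not tested.

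The genes whose course over the 6 libraries was most like that of Arg1 were Cnpy1, Tnfrsf23 and Il5ra. Their mean-centred log2 CPM differed from that of Arg1 by a root mean square of 0.23, 0.30 and 0.36. Tnfrsf23, a decoy receptor of the TNF receptor family with related neighbours, was called higher in polyps (log2 fold change 2.67, adjusted p = 0.0195). Cnpy1 and Il5ra, a subunit of the interleukin-5 receptor, were low, at no more than 12.5 CPM, and did not pass (adjusted p = 0.0717 and 0.0856). Since they were picked for their likeness to Arg1 over these libraries, their higher values in polyps follow from the choice.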

How the data were processed

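The authors deposited whole-number read counts per Ensembl gene for each of 6 libraries, headed as read counts and not normalized. The submitters' processing notes list HTSeq 0.5.3p9, TopHat2 2.0.7 and Bowtie 0.12.9. Settings, strand, genome build and annotation were not given in these sources. Symbols and exon lengths came from GENCODE M21, which named 32919 of 37991 identifiers.

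Counts were tested with edgeR 4.0.16 (R 4.3.3), with TMM normalization, filterByExpr (minimum count 10), robust quasi-likelihood F tests (two-sided) and the mouse as a block, with Benjamini-Hochberg adjustment over 11970 genes, called under 0.05. Pairing comes from the series' design text, and sample titles give the animal. Deviations from the tissue means correlated at 0.105 to 0.138 within mice and at -0.0908 to -0.00862 between them. Because deviations cancel over the 3 mice of a tissue, positive values within mice bring negative ones between them. The values between mice are therefore no separate evidence of pairing. Libraries of a tissue were not repeats of each other (chi-square over its degrees of freedom, 20.6 to 73.7). There were 2 residual and a median of 7.60 prior degrees of freedom. P-values rest on how far the polyp-to-surrounding difference varied between these 3 mice, with the estimate of that spread shared in part across genes. The test between mice used the same residual spread. CPM is normalized; log2 CPM used a prior count of 2; standard errors come from the test statistic. Counting intervals for ratios are exact binomial at 95%. Motifs were matched in Python 3.11.15.

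Named were the 10 genes and the called genes of 12 lists. Up to 3 more by smallest p were named from the 5 pathway lists and the macrophage, alternatively activated macrophage and neutrophil lists. This was not done for the epithelial, colonocyte, fibroblast and smooth muscle lists. The 3 genes most like Arg1 were named too. Retnla, Chil3, Clec10a, Elane, Camp, Azin1, Amd2, Adi1, Apip, Cdx1, Cdx2, Csf1r, Itgam, Cd68, Aif1, S100a9, Krt20, Car1 and Slc51a were added after their values were seen. Members and lists were chosen with earlier results of these data known. Pycr3 and Ms4a12 were not matched. A further gene that the rule names is not reported here. Alternatives were no block, upper-quartile or RLE normalization, removal of genes over 1% of any library, no filter, a mean of 5 CPM, no robustness, DESeq2 1.42.0, limma-voom (limma 3.58.1) and leaving out each mouse, with filterByExpr by tissue group added after seeing the data.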

Additional observations from a re-analysis of the deposited data

How the results depend on the processing

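Genes called between polyp and surrounding tissue numbered 337, and 88 without the replicate block, 753 without a filter on low counts, 519 with DESeq2, 534 with limma-voom, and 83 to 281 with 1 mouse left out (83 without mouse 1119, 100 without mouse 1199). Of the 10 pathway genes, 2 were called, and 0 without the replicate block, 1 with upper-quartile scaling, 1 with non-robust spread and 1 with any 1 mouse left out (Nos2 without mouse 1119, Arg1 otherwise). Without the block Arg1, Sat1, Smox, Ddah1 and Ahcy lost their calls, as did the markers Krt8, Krt18, Krt19, Car4, Fabp2, Col1a1, Col3a1 and Acta2. Krt8, Krt19 and Acta2 also lost theirs with non-robust spread, and Acta2 with the filter by tissue group. Genes called between mice numbered 27, and 395 without a filter, 144 with DESeq2, 11 with the filter by tissue group (chosen after seeing the data) and 8 to 17 with 1 mouse left out (17 without 1119, 17 without 1192 and 8 without 1199). Of the 10 genes, 1 (Arg1) was called between mice without a filter and 1 (Arg1) with DESeq2. The log2 fold change of Sms turned to -0.17 with limma-voom. With 1 mouse left out, that of Sms ran from -0.48 (without 1199) to 0.75, and 4 others turned sign without mouse 1192: Ass1 (-0.057 to 1.32), Amd1 (-1.24 to 0.27), Oaz2 (-0.031 to 0.48) and Mrc1 (-0.14 to 0.96). The cause of these shifts was not tested. Over the 10 genes, 110 of 123 values kept direction and side of the threshold, 8 lost a call, 1 gained one and 4 turned sign. With a mean of at least 5 CPM, 5 of the 10 genes were tested. Srm, Ass1, Amd1, Arg2 and Sms rest on 1 to 99 counts a library.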
